A study of Mus musculus with 42 samples.

Results

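The CXCR2 axis is the set of CXC chemokines that recruit neutrophils together with the receptor they share, and G-CSF is the growth factor that drives the making of those cells. The genes described here are the receptor Cxcr2, its ligands Cxcl1, Cxcl2, Cxcl3, Cxcl5 and Ppbp, the gene of G-CSF (Csf3) and the G-CSF receptor gene Csf3r. They were chosen by name. A probe set was taken for a gene where its annotated symbol was that gene, which gave 1 probe set for each of the 8 genes among the 20672 probe sets in the deposited table. Gene expression was measured on Affymetrix Mouse430 arrays in wounded and untreated mouse skin, on 42 arrays in 9 groups.

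The wounded animals were female db/db mice, which lack a working leptin receptor and are diabetic, obese and slow to heal, and they were 10 to 12 weeks old per the methods. Each carried a 6 mm wound and was treated on the wound surface with a control protein, with IL-22-Fc (IL-22 joined to an antibody tail), with VEGF or with PDGF. Skin was taken 24 h after 1 dose (4 control arrays, and 5 each for IL-22-Fc, VEGF and PDGF), or on day 7 after doses on days 0, 2, 4 and 6 (5 arrays each for control, IL-22-Fc and VEGF, and 3 for PDGF). A further 5 arrays came from untreated skin of day 0, whose genotype the labels do not give, so a contrast with it cannot be told apart from a difference of genotype. Lean animals were not analysed here. The labels and design text call the control an anti-ragweed antibody and the methods call it control Fc, and these sources differ on doses as well. The labels give 20 µg for VEGF, 50 µg for PDGF and, at 24 h, 50 µg for IL-22-Fc, where the methods have 50 µg of VEGF and the design text has 20 µg of IL-22-Fc. The strain field of the labels reads C57BL/6, whereas the group names and design text give db/db. The study asked how these treatments alter gene expression in a healing wound.

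CXCR2 is a G protein coupled receptor that is best known from neutrophils, and the ligands made by keratinocytes, fibroblasts, endothelium and leukocytes form the gradient those cells follow into injured skin. G-CSF acts on the bone marrow through its receptor, promotes the making and survival of neutrophils and releases them into the blood. PPBP is the exception among the ligands, since it is stored as a precursor in platelet granules.

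All 5 ligand genes lie in 1 cluster on chromosome 5 (GRCm38.p6), with Cxcl5 at chr5:90759298-90761625, Ppbp at chr5:90768518-90770063, Cxcl3 at chr5:90786101-90788093, Cxcl1 at chr5:90891245-90893121 and Cxcl2 at chr5:90903899-90905938. Cxcr2 is at chr1:74153994-74161246, Csf3 at chr11:98700183-98703631 and Csf3r at chr4:126023441-126044975. Levels of Cxcl1, Cxcl2 and Cxcl3 moved together over the arrays (Pearson r of 0.92 to 0.98), and the other ligands moved with them. With these 3 genes, r was 0.89 to 0.92 for Ppbp and 0.88 to 0.96 for Cxcl5. The RefSeq promoter windows of Cxcl1, Cxcl2 and Cxcl3, from 250 bases before to 50 bases after the start of the gene, are shown. They cover chr5:90890995-90891294, chr5:90903649-90903948 and chr5:90785851-90786150, all on the plus strand of GRCm38.p6, and capitals mark matches on either strand to GGG, any 3 bases and TTCC, a form of the motif bound by NF-kB.
Cxcl1: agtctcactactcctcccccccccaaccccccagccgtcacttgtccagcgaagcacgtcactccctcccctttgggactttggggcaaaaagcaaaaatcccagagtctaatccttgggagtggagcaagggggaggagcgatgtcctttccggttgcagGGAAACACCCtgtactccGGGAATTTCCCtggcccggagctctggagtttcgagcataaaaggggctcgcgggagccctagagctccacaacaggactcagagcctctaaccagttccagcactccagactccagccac
Cxcl2: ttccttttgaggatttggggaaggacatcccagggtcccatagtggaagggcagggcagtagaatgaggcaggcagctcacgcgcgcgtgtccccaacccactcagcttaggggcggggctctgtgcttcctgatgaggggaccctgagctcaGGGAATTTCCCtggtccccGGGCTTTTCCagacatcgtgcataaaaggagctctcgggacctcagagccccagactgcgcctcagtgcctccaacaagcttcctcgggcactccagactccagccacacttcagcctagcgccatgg
Cxcl3: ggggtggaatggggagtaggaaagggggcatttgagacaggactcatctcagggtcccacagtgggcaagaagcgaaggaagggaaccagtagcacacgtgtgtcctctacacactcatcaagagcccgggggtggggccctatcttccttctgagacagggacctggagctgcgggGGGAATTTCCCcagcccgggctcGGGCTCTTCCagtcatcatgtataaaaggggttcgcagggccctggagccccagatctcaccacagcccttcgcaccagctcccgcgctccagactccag
Each of the 3 windows held the same GGGAATTTCC, beginning 71 bases before the start in Cxcl1, 97 in Cxcl2 and 73 in Cxcl3. In each, the match on the opposite strand, GGAATTTCCC, overlapped it and began 1 base later. A further match stood upstream of it in Cxcl1 and downstream of it in Cxcl2 (GGGCTTTTCC) and Cxcl3 (GGGCTCTTCC). Of the 6 windows held here, 4 had a match (those of Cxcl1, Cxcl2, Cxcl3 and Csf3r), against 5.56% of all 32851 windows. Those of Cxcr2 and Ppbp had none. The Csf3r window, chr4:126024409-126024708, lay inside the gene interval given above and not at its start. Neither TTGCNNAA, a C/EBP motif, nor TTCNNNGAA, a STAT motif, was found on either strand of the 6 windows, while 10.8% and 8.3% of all windows held them. TATAAA was found in the windows of Cxcl3 and Ppbp and in 13.6% of all windows. In global pairwise alignments with gaps, the Cxcl2 and Cxcl3 windows were identical at 57.6% of the aligned columns, Cxcl1 and Cxcl2 at 53.6%, and Cxcl1 and Cxcl3 at 53.2%. A match is a description of these letters, not a binding site or a cause. Cxcl1, Cxcl2 and Cxcl3 are close relatives, and cross-hybridisation between their probes was not tested.

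Levels are given as the log2 of the deposited RMA intensity, on which a difference of 1 is a 2-fold change. A probe set was called at an adjusted p under 0.05 from limma, with p adjusted over all 20672 probe sets. Levels of different probe sets are not comparable with each other, and no detection calls were used, so a fold against a level near the bottom of an array has no corrected size. The arrays were even, with medians from 5.63 to 5.72, and no pair was identical. Krt5 and Krt10, markers of the epidermis, averaged 13.21 and 13.85 in untreated skin, whereas Krt14 averaged 6.25. Replicate numbers used here follow the order of the samples within each group, since the labels give none. One VEGF array of day 7 (replicate 1) stood apart: 46 probe sets were at least 2 higher on it than the mean of the other 4 arrays of its group. By the same measure the count was 0 to 1 for each of those. It was picked as the VEGF array of day 7 with the highest mean of the 8 genes described here. Results without it are therefore selected on their outcome. Counts of called genes that moved when it was left out are given both ways. The 3 PDGF arrays of day 7 had 5′ Gapdh levels of 11.26 to 11.60 against 12.82 to 12.99 in the day 7 controls, so a sign of RNA quality moved with that group. The untreated arrays varied in it as well, from 11.14 to 12.92, which is a limit on every contrast with untreated skin. The labels do not tie each array to its own animal, so p-values measure the spread between arrays, whose number limits the precision.

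Wounding came with more mRNA of both receptors and of every ligand. In control wounds at 24 h, 7 of 8 genes were higher than in untreated skin, as were 19.3% of all probe sets, and the median difference of the 8 was 5.26 against 0.03 over all probe sets. The ligands Cxcl2, Cxcl3 and Cxcl5 went from the lower part of the array to levels near its top. In bulk skin, more cells of a type and more RNA per cell cannot be told apart.

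**Figure D1:**
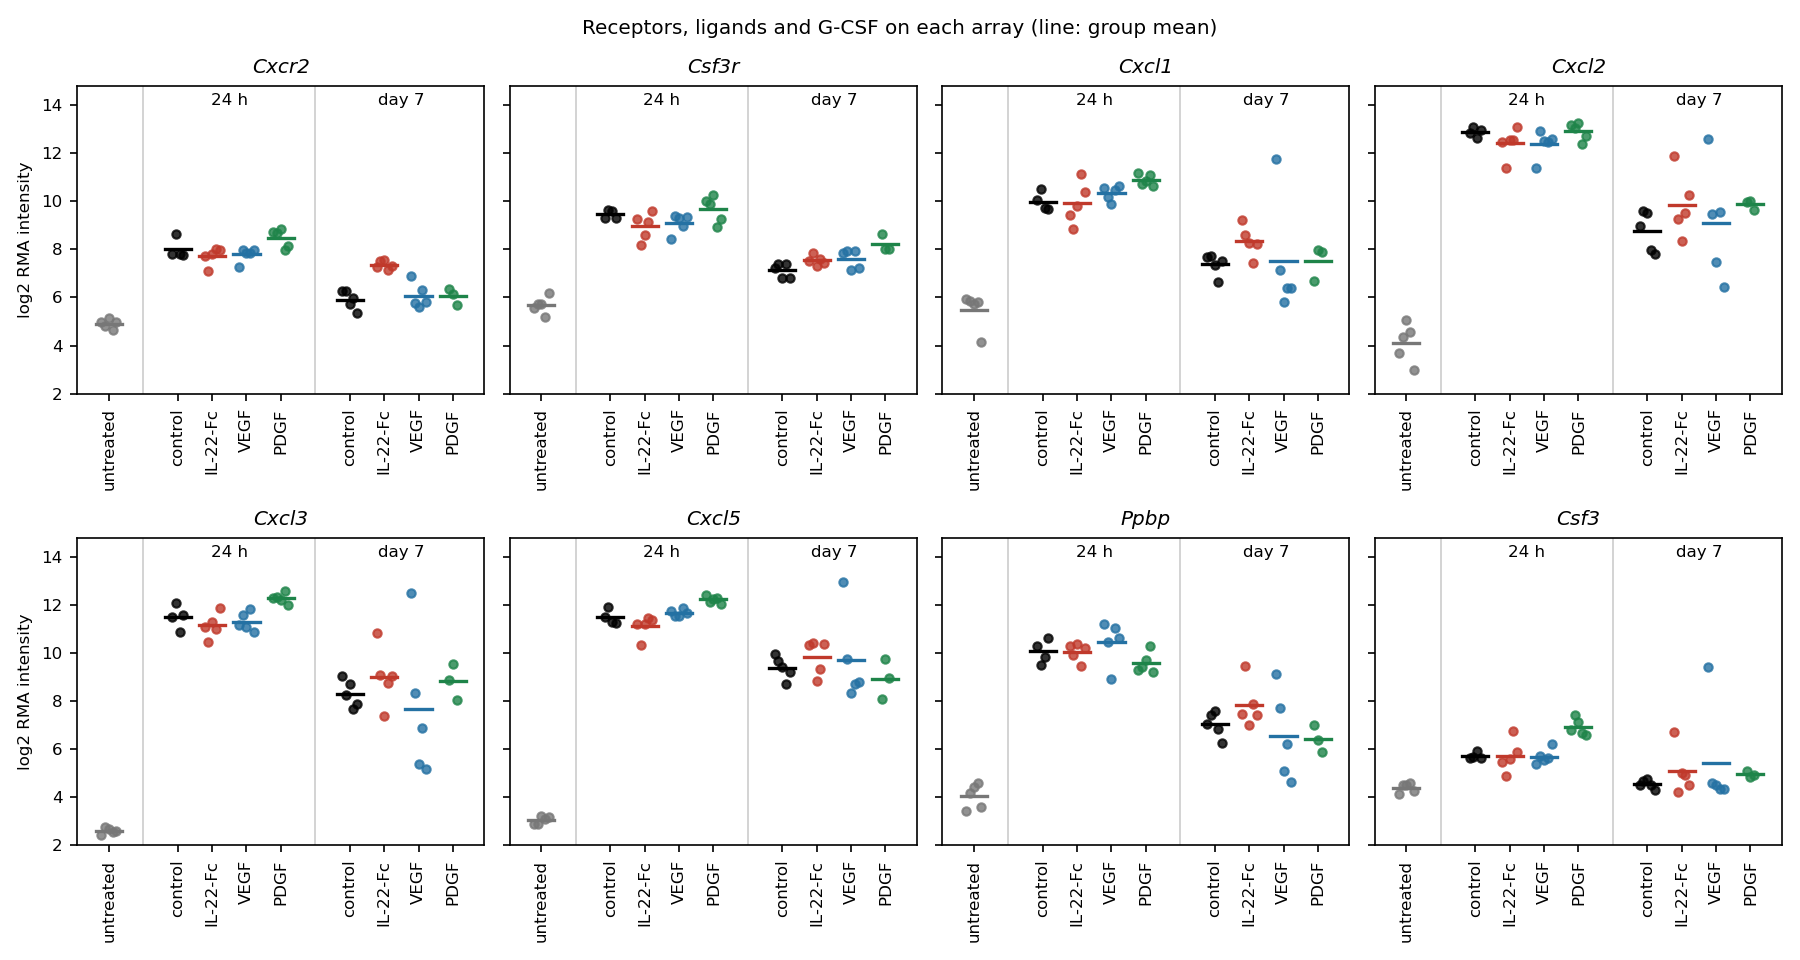
Log2 RMA intensity of each gene (8 panels) on each of the 42 arrays, by group from untreated skin through the 24 h wounds to the day 7 wounds. Points are arrays and lines are group means. The group means of the 5 ligands were lowest in untreated skin and higher at 24 h than on day 7, Cxcr2 with IL-22-Fc on day 7 lay between 7.13 and 7.56 against 5.33 to 6.26 in the control, and 1 VEGF array of day 7 stood above the others of its group in Csf3 (9.40 against at most 4.57).

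Among the ligands, Cxcl3 read 2.42, 2.75, 2.69, 2.54 and 2.58 on the untreated arrays and 11.51, 12.08, 10.88 and 11.56 in the control wounds at 24 h. Untreated arrays placed it between the 1.5 and 5.3 percentile of all probe sets. The groups did not overlap, and the mean was 8.91 higher (481-fold, SE 0.76, adjusted p = 8.13e-12). Cxcl5, which is made largely by epithelium, read 2.87, 2.90, 3.19, 3.09 and 3.16 untreated and 11.47, 11.92, 11.29 and 11.24 at 24 h. That is a rise of 8.44 (347-fold, SE 0.49, adjusted p = 7.34e-16). Cxcl2, a ligand made by macrophages and neutrophils among others, lay at 3.67, 4.37, 5.06, 4.56 and 2.97 untreated against 12.84, 13.10, 12.64 and 12.97, which put it between the 98.6 and 99.8 percentile of the wound arrays of all treatments at 24 h. It rose by 8.76 (433-fold, SE 0.68, adjusted p = 8.58e-13).

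Cxcl1 was named as a chemokine of stimulated fibroblasts and is made by keratinocytes as well. It read 5.94, 5.85, 5.74, 5.80 and 4.14 untreated and 10.05, 10.51, 9.72 and 9.68 at 24 h, a rise of 4.50 (22.6-fold, SE 0.64, adjusted p = 4.99e-07). The untreated array at 4.14 stood below the other 4. Ppbp read 3.42, 4.17, 4.40, 4.60 and 3.59 untreated and 10.29, 9.49, 9.83 and 10.62 at 24 h, 6.02 higher (65.1-fold, SE 0.56, adjusted p = 7.21e-11). Of 16 platelet genes measured of 18 listed, 4 rose and 2 fell in this contrast, where 19.3% of all probe sets were higher and 20.2% lower. The mean of the list was 5.80 to 6.17 on the untreated arrays (median 5.92) and 6.23 to 6.39 on the control wound arrays (median 6.33), without overlap, and its part in the Ppbp result was not tested. Pf4, the other platelet granule chemokine of the cluster, rose by 2.09 and Nfe2, a megakaryocyte transcription factor, by 3.17. The surface glycoproteins that define platelets did not pass, with differences of 0.13 for Itga2b, 0.16 for Gp9 and -0.06 for Gp5.

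Both receptor genes rose. Cxcr2 read 4.98, 4.80, 5.13, 4.66 and 4.98 untreated and 7.82, 8.63, 7.82 and 7.77 in control wounds at 24 h, 3.10 higher (8.58-fold, SE 0.23, adjusted p = 2.32e-13). Csf3r read 5.57, 5.74, 5.71, 5.21 and 6.19 untreated and 9.29, 9.66, 9.58 and 9.30 at 24 h, 3.78 higher (13.7-fold, SE 0.25, adjusted p = 1.98e-14). Neither gene's groups overlapped. Neutrophil markers moved with them: of 33 measured of 40 listed, 25 rose and 1 fell, where 19.3% of all probe sets were higher and 20.2% lower. The largest rises were 8.16 for Slfn4, 7.17 for S100a9, 6.60 for Stfa2l1 and 6.42 for Clec4e. Among the markers fixed as defining, Mmp8, a granule collagenase, rose by 4.49 and Ngp, a granule protein of maturing cells, by 0.82. The granule genes Camp, Elane and Mpo, which are transcribed in the bone marrow, did not pass. Ly6g and Retnlg were not analysed here. The mean of the 33 markers was 6.31 to 6.83 on the untreated arrays (median 6.61) and 9.36 to 9.45 on the control wound arrays (median 9.37), without overlap. Monocyte and macrophage markers moved too, with 10 of 15 higher and list means of 8.31 to 10.16 untreated against 10.21 to 10.92. The part of either list in the receptor result was not tested.

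Csf3 was the exception. It read 4.13, 4.50, 4.51, 4.57 and 4.25 untreated and 5.62, 5.67, 5.93 and 5.64 in control wounds at 24 h. The groups did not overlap (exact permutation p = 0.00794, two-sided, the smallest this design allows), and the mean difference of 1.32 (SE 0.57) had an adjusted p of 0.0624 in the fit over all 42 arrays. Without the VEGF array that stood apart, the adjusted p was 0.000494 and all 8 genes passed.

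Each treated group gave the same picture against the same 5 untreated arrays. At 24 h, 7 of 8 genes were higher with IL-22-Fc (18.9% of all probe sets), 7 of 8 with VEGF (17.4%) and 8 of 8 with PDGF (24.6%). On day 7, 7 of 8 were higher with IL-22-Fc (21.9%), VEGF (22.4%) and PDGF (24.5%), Csf3 being the one that did not pass. Without the VEGF array that stood apart, Csf3 also passed at 24 h with IL-22-Fc (1.31, adjusted p = 0.000284) and with VEGF (1.29, adjusted p = 0.000411), which made 8 of 8 in both, and the day 7 counts stayed at 7. These contrasts share their untreated arrays and are not independent of each other.

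By day 7 the control wounds had come part of the way back. Against 24 h, 7 of 8 genes were lower, as were 18.2% of all probe sets, and the median difference of the 8 was -2.47 against -0.0045 over all probe sets. Cxcl2 fell by 4.12 (SE 0.69, adjusted p = 1.23e-05), to 8.96, 9.58, 9.51, 7.99 and 7.81. Cxcl3 fell by 3.20 (adjusted p = 0.00152), Ppbp by 3.04 (adjusted p = 6.74e-05), Cxcl1 by 2.61 (adjusted p = 0.00156) and Cxcl5 by 2.10 (adjusted p = 0.00141). Both receptors declined too: Csf3r fell by 2.33 (adjusted p = 5.05e-09) and Cxcr2 by 2.10 (adjusted p = 9.66e-09). For Csf3 the difference was -1.16 (SE 0.59, adjusted p = 0.136), the groups did not overlap, and without the VEGF array the adjusted p was 0.00315.

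Day 7 levels nevertheless stayed above untreated skin for 7 of 8 genes, with 18.2% of all probe sets higher. Cxcl5 was still 6.34 higher (adjusted p = 1.9e-13), at 9.94, 9.65, 9.42, 8.70 and 9.19. Cxcl3 was 5.71 higher, Cxcl2 4.64, Ppbp 2.99, Cxcl1 1.89, Csf3r 1.45 and Cxcr2 1.00, with adjusted p from 4.26e-08 for Cxcl3 to 0.012 for Cxcl1. Csf3, at 4.52, 4.68, 4.77, 4.51 and 4.31, overlapped the untreated arrays and differed by 0.16 (adjusted p = 0.844). Neutrophil markers again moved alongside: 17 of 33 were higher and 4 lower than in untreated skin, and 2 rose and 20 fell from 24 h to day 7. Over all probe sets, 18.2% were higher and 18.6% lower in the first contrast, and 16.5% and 18.2% in the second. Among these markers, the changes between the times were as follows. Slfn4 fell by 4.76, Cd177 by 3.74, Fpr2 by 3.51 and Trem1 by 3.40 between the times, whereas Stfa3 rose by 1.80. The part of the neutrophil markers in the result was not tested.

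**Figure D2:**
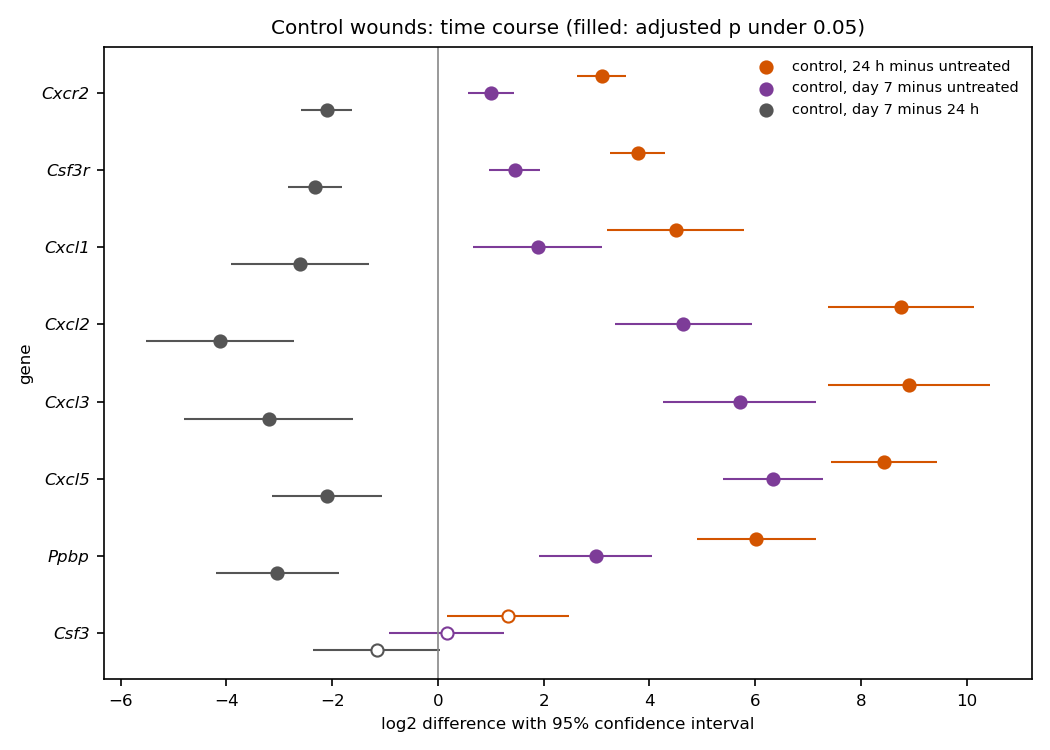
Log2 differences of the 8 genes in control wounds, at 24 h and at day 7 against untreated skin and at day 7 against 24 h, with 95% confidence intervals. Filled points passed an adjusted p under 0.05. Differences at 24 h ran from 1.32 for Csf3 to 8.91 for Cxcl3, and those of day 7 against 24 h from -4.12 for Cxcl2 to -1.16 for Csf3.

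Genes known to induce these chemokines, from IL-1, TNF and IL-17 signalling to NF-kB, were also counted. In control wounds at 24 h, 19.3% of all probe sets were higher and 20.2% lower than in untreated skin. From 24 h to day 7, 16.5% were higher and 18.2% lower. Of 23 inducing genes measured of 26 listed, 19 rose and none fell at 24 h, with a list median of 1.11 against 0.03 over all probe sets. Il1b rose by 6.29, Il6 by 4.91, Tnf by 3.26 and the IL-1 receptor antagonist Il1rn by 2.72. From 24 h to day 7, 0 rose and 21 fell, among them Il1b (by 4.14), Tnf (by 3.04), Il6 (by 2.22) and the NF-kB inhibitor Tnfaip3 (by 2.05). On day 7, 5 of the 23 were higher than in untreated skin and 2 lower, where 18.2% of all probe sets were higher. Genes that act downstream of the receptors also rose at 24 h, 17 of 23 measured of 26 listed, with 1 lower. Socs3, a feedback inhibitor of cytokine receptors, rose by 3.34, the leukocyte kinase Fgr by 3.02, the exchange factor Vav1 by 2.89 and the GTPase Rac2 by 2.13. Of 11 genes of the other colony stimulating factors and their receptors, 6 rose and 1 fell, with Csf2rb 2.33 higher, Csf1 2.13 higher, Csf2ra 1.84 higher and Il34 0.63 lower on the log2 scale. Among the relatives and decoy receptors of the ligands, 3 of 6 rose and 2 fell at 24 h: the scavenging receptor Ackr3 was 0.67 higher and Ackr4 differed by -0.55.

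At 24 h the treatments moved few of these genes. With IL-22-Fc, 0 of 8 passed against control (0.111% of all probe sets), 0 had an unadjusted p under 0.05 and 0 an exact p under 0.05. All 8 means were lower, from -0.51 for Csf3r to -0.01 for Csf3. The interval for Cxcr2 ran from -0.75 to 0.18, with arrays at 7.73, 7.11, 7.80, 8.01 and 7.97. With VEGF, 0 of 8 passed (0.135%), again with 0 under an unadjusted p of 0.05, and the differences lay between -0.51 for Cxcl2 and 0.39 for Ppbp. The intervals for Csf3 were -0.56 to 0.54 with IL-22-Fc and -0.58 to 0.52 with VEGF. Of the neutrophil markers and of the inducing genes, 0 passed with any of the 3 treatments at 24 h.

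PDGF was followed by more Csf3 and Cxcl5. It gave 2 of 8 genes past the threshold, against 1.89% of all probe sets, and a median difference of 0.60 against 0.00074 over all probe sets. Csf3 read 6.78, 7.42, 7.13, 6.66 and 6.59 with PDGF, above every control array (5.62 to 5.93), and rose by 1.20 (2.3-fold, SE 0.26, 95% interval 0.65 to 1.75, adjusted p = 0.0224). Cxcl5 read 12.42, 12.13, 12.23, 12.29 and 12.05, also above every control array (11.24 to 11.92), and rose by 0.74 (1.67-fold, SE 0.18, interval 0.37 to 1.12, adjusted p = 0.0401). The exact permutation p was 0.00794 for both, the smallest that 5 arrays against 4 allow.

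Neither call was firm. With all 42 arrays in 1 fit the adjusted p was 0.364 for Csf3 and 0.577 for Cxcl5. Leaving out 1 array lost the call of Csf3 in 4 of 19 fits (PDGF replicate 2 or 3, control replicate 1 or 4), with adjusted p from 0.00322 to 0.081, and that of Cxcl5 in 10 of 19 (PDGF replicates 1 to 4, control replicates 1, 3 and 4, VEGF replicates 2 and 5 and IL-22-Fc replicate 3), with adjusted p from 0.00287 to 0.16. Other ligands read higher without passing: Cxcl1, at 11.20, 10.73, 10.86, 11.10 and 10.62, did not overlap the control arrays (difference 0.91, SE 0.31, adjusted p = 0.148, exact permutation p = 0.00794), and Cxcl3 differed by 0.76 (adjusted p = 0.13, or 0.0294 without control replicate 2). Cxcr2 differed by 0.46 (adjusted p = 0.321), Csf3r by 0.21, Cxcl2 by 0.05 and Ppbp by -0.48. The mean of the neutrophil markers was 9.37 to 9.72 with PDGF (median 9.56) against 9.36 to 9.45 in the controls, and its part was not tested.

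Set directly against PDGF at 24 h, IL-22-Fc wounds were lower in 4 of 8 genes (2.3% of all probe sets) and VEGF wounds in 4 of 8 (2.28%), and both contrasts use the same PDGF arrays. With IL-22-Fc, Csf3 was lower by 1.21 (adjusted p = 0.00465), Cxcl3 by 1.13 (0.00546), Cxcl5 by 1.12 (0.000424) and Cxcr2 by 0.75 (0.0329), as log2 differences. The Cxcr2 call was lost in 6 of 19 fits that each left out 1 array. With VEGF, Csf3 differed by -1.23 (adjusted p = 0.00302), Cxcl3 by -0.97 (0.0119), Cxcr2 by -0.68 (0.045) and Cxcl5 by -0.56 (0.0444), the last 2 losing their call in 12 of 19 such fits each. IL-22-Fc and VEGF did not differ from each other in any of the 8 (0.687% of all probe sets, 1 gene with an unadjusted p under 0.05).

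**Figure D3:**
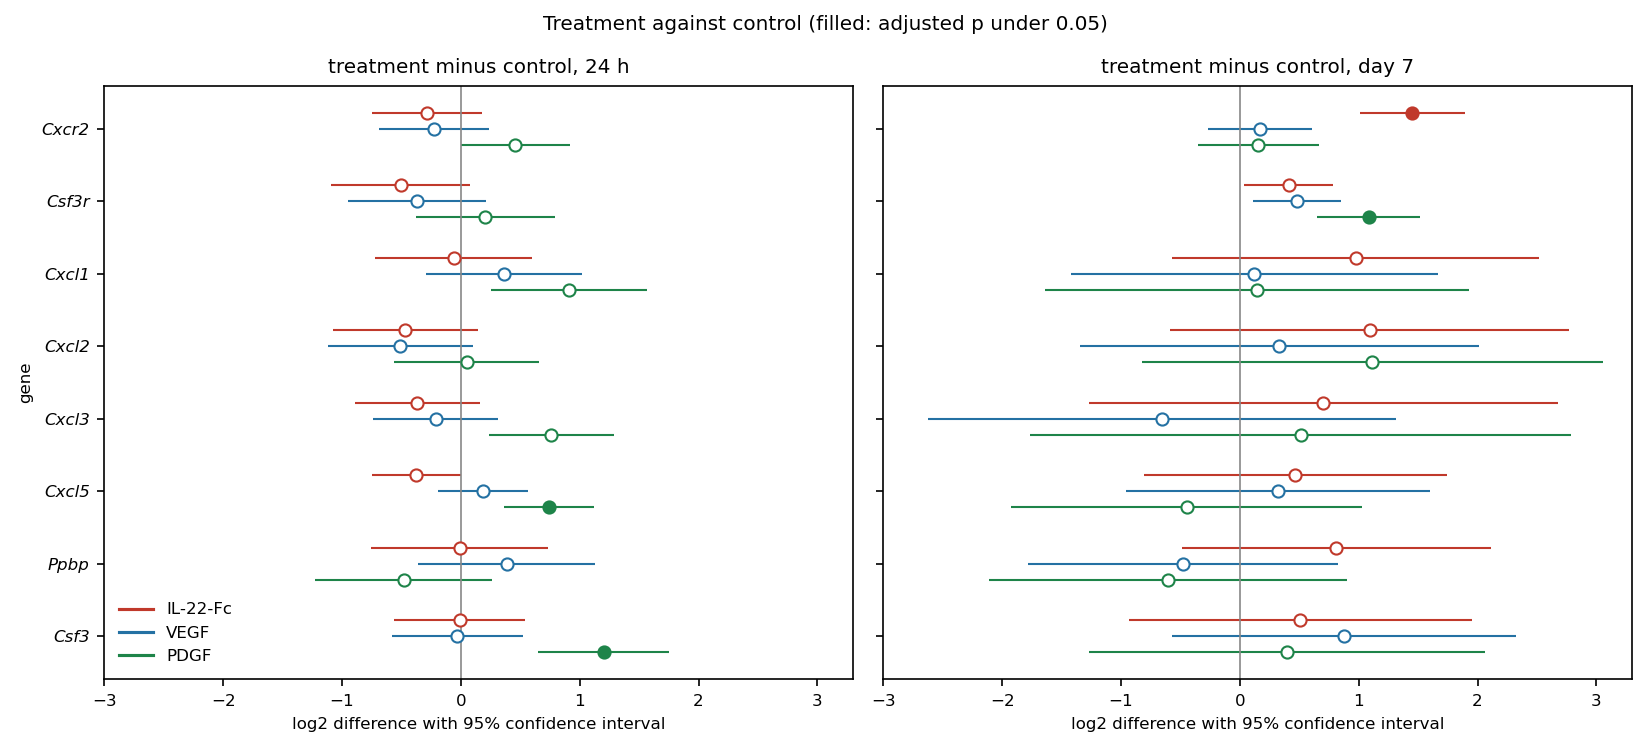
Log2 difference of each treatment from the control of the same time for the 8 genes, at 24 h and on day 7, with 95% confidence intervals. Filled points passed an adjusted p under 0.05: Csf3 and Cxcl5 with PDGF at 24 h, Cxcr2 with IL-22-Fc on day 7 and Csf3r with PDGF on day 7. The intervals of the ligands on day 7 are wide, reaching from -2.62 to 1.32 for Cxcl3 with VEGF.

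On day 7, IL-22-Fc was followed by more Cxcr2 than any other treatment. Cxcr2 read 7.25, 7.53, 7.56, 7.13 and 7.33 with IL-22-Fc and 6.25, 6.26, 5.71, 5.98 and 5.33 in the control, with no overlap. The means were 7.36 ± 0.18 (SD, n = 5) and 5.91 ± 0.39 (SD, n = 5). Cxcr2 rose by 1.45 (2.74-fold, SE 0.21, interval 1.01 to 1.89, adjusted p = 0.000151, exact permutation p = 0.00794), the only one of the 8 genes to pass, against 5.45% of all probe sets. Leaving out each of the 18 arrays in turn gave 1.31 to 1.54 and kept the call. Cxcr2 is among the genes the study chose on these arrays, so its rise is not independent evidence of a direction.

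The rise set this group apart from the other treatments too. With VEGF, Cxcr2 read 6.88, 5.78, 5.62, 6.30 and 5.80, and IL-22-Fc was 1.28 higher (adjusted p = 0.000106, with 22.9% of all probe sets called). With PDGF it read 6.36, 6.14 and 5.69, and IL-22-Fc was 1.30 higher (adjusted p = 0.000226, with 38.1% called). The order of the groups on day 7 was IL-22-Fc, VEGF, PDGF and control, of which the last 3 overlapped. Over all 9 groups, the IL-22-Fc arrays of day 7 came next below the 24 h wounds and overlapped the 24 h IL-22-Fc arrays (7.11 to 8.01).

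The IL-22-Fc effect on Cxcr2 also differed between the times: its difference from control was 1.74 greater on day 7 than at 24 h (SE 0.32, adjusted p = 0.00213, with 1.69% of all probe sets called). No other of the 8 genes passed this test, Csf3r giving 0.92 (adjusted p = 0.187).

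The rest of the axis was not called with IL-22-Fc on day 7. All 8 means were higher than in the control, with a median of 0.76 against -0.0031 over all probe sets, and for the other 7 the arrays overlapped. Csf3r read 7.52, 7.86, 7.32, 7.60 and 7.43 against 7.25, 7.40, 6.83, 7.41 and 6.79, a difference of 0.41 (SE 0.18, adjusted p = 0.218, exact permutation p = 0.0317). Cxcl1 read 9.23, 8.61, 8.27, 7.45 and 8.22 against 7.69, 7.71, 7.36, 6.65 and 7.51, a difference of 0.97 (SE 0.74, adjusted p = 0.533, exact permutation p = 0.0317). The ligands Cxcl2 (1.09), Ppbp (0.81), Cxcl3 (0.70) and Cxcl5 (0.47) and Csf3 (0.51) had adjusted p above 0.5. One IL-22-Fc array, replicate 1, was the highest of its group in Cxcl1, Cxcl2 (11.88), Cxcl3 (10.81) and Csf3 (6.72).

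Among the neutrophil markers beside this result, more rose than fell. On day 7, 6 of the 33 rose and 2 fell against control with IL-22-Fc, where 2.81% of all probe sets were higher and 2.64% lower. Lcn2 rose by 1.86, Stfa2l1 by 1.59, S100a9 by 1.32 and Stfa3 by 1.26, and these are made by stimulated epidermis as well as by neutrophils. Mpo and Ctsg, genes of the primary granules, fell by 0.47 and 0.51 on the log2 scale. Of the defining markers besides Mpo, 0 passed: Mmp8 differed by 0.64 (adjusted p = 0.363), Ngp by -0.17, Camp by -0.16 and Elane by -0.05. The mean of the 33 was 8.00 to 8.55 with IL-22-Fc (median 8.26) and 7.64 to 8.12 in the control (median 8.04). These ranges overlapped through IL-22-Fc replicate 3 (8.00) alone, the other IL-22-Fc arrays (8.25 to 8.55) lying above every control array. Mast cell markers gave 0 higher and 5 lower of 8, where 2.64% of all probe sets were lower. Their list means overlapped (7.92 to 8.35 against 8.10 to 8.53). The part of either list in the Cxcr2 result was not tested. Of the inducing genes, 2 of 23 were higher, the RNase Zc3h12a by 1.14 and the NF-kB cofactor Nfkbiz by 0.99, while Il1b read 1.16 higher without passing (adjusted p = 0.365). Among the signalling genes Socs1 rose by 0.66 and Stat3, the main transducer of IL-22 and of G-CSF, by 0.49, and Rac2 fell by 0.45. Of the other colony stimulating factor genes 0 were higher, and Il34 fell by 0.70 and Csf2ra by 0.31.

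**Figure D4:**
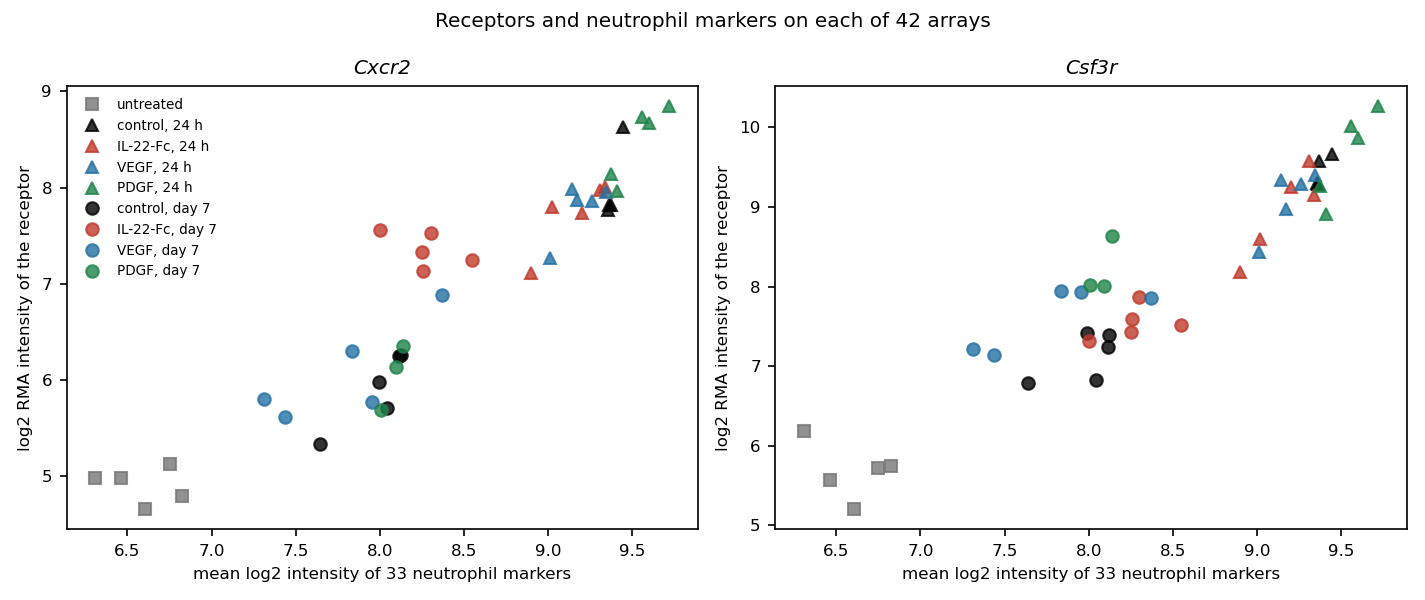
Cxcr2 (left) and Csf3r (right) against the mean of 33 neutrophil markers on each of the 42 arrays, all as log2 RMA intensity and marked by group. The IL-22-Fc arrays of day 7 had marker means of 8.00 to 8.55 and Cxcr2 levels of 7.13 to 7.56. The PDGF arrays of day 7 had marker means of 8.01 to 8.14, Cxcr2 levels of 5.69 to 6.36 and Csf3r levels of 8.01 to 8.63. The part of the markers in the receptor levels was not tested.

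PDGF on day 7 had more of the G-CSF receptor and not of Cxcr2. Csf3r read 8.63, 8.01 and 8.02 against 6.79 to 7.41 in the control, with no overlap, and rose by 1.08 (2.12-fold, SE 0.21, interval 0.65 to 1.52, adjusted p = 0.0003). The exact permutation p was 0.0179, the smallest for 3 arrays against 5. It was 1 of 8 genes called, where 34.9% of all probe sets were. With the 5′ control level as a covariate the value was 1.15 and its adjusted p 0.425, and the part of RNA quality was not tested further. Csf3r was also higher with PDGF than with IL-22-Fc (difference of IL-22-Fc from PDGF -0.67, adjusted p = 0.0135) and than with VEGF (difference of VEGF from PDGF -0.60, adjusted p = 0.0243, with 39.7% of all probe sets called). Without the VEGF array that stood apart, VEGF was lower than PDGF in 3 of 8 genes (38.4% of all probe sets called in either direction), Cxcl1 (-1.09, adjusted p = 0.0239) and Cxcl3 (-2.38, adjusted p = 0.00748) joining Csf3r (-0.66), and IL-22-Fc differed from PDGF in 3 of 8 in place of 2 (38.6%), Ppbp (1.42, adjusted p = 0.0486) being added. With all arrays in, both Csf3r calls were lost without PDGF replicate 1, and the second also without VEGF replicate 3 or 5. Cxcr2 differed from control by 0.16, with an interval from -0.35 to 0.66.

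Of the ligands and Csf3, 0 passed with PDGF on day 7. Cxcl2 read 9.98, 10.02 and 9.66, above every control array, for a difference of 1.12 (SE 0.93, adjusted p = 0.394). Csf3 read 5.09, 4.85 and 4.92 against 4.31 to 4.77 (difference 0.40, adjusted p = 0.751, exact permutation p = 0.0357). Ppbp differed by -0.61 and Cxcl5 by -0.45. Over all probe sets, 18.9% were higher and 16% lower in this contrast. Neutrophil markers gave 5 higher and 3 lower of 33, no larger a share than that, with Cd177, a surface marker, 1.95 higher. Signalling genes gave 12 higher and 5 lower of 23, and inducing genes 9 higher and 0 lower of 23. Markers of other cells differed without overlap beside the Csf3r rise. The mean of the monocyte and macrophage markers was 10.94 to 11.05 with PDGF against 10.52 to 10.78 in the control, that of the eosinophil markers 4.77 to 4.84 against 3.09 to 3.36, and that of the fibroblast markers 9.71 to 10.39 against 10.49 to 10.96. Their part in the Csf3r result was not tested. For no gene did the PDGF effect differ between the times (0 of 8, with 32.3% of all probe sets called), although the call of Csf3 and Cxcl5 came at 24 h and that of Csf3r on day 7. Without the VEGF array that stood apart, Cxcl5 passed this test, with a difference of -1.19 (adjusted p = 0.0409).

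With VEGF on day 7, 0 of 8 genes passed (14.7% of all probe sets, 1 gene with an unadjusted p under 0.05), and 1 array lay far from the rest. Csf3r, which differed by 0.48 (adjusted p = 0.0823), passed without VEGF replicate 3 or 5. The VEGF effect differed between the times for 0 of 8 genes (8.85% of all probe sets). On replicate 1 Csf3 read 9.40, against 4.57, 4.52, 4.33 and 4.33 on the others. Cxcl1 read 11.77 there against 7.15, 5.79, 6.41 and 6.41, and Cxcl3 12.51 against 8.31, 5.39, 6.88 and 5.16. Its Csf3 level was the highest of all 42 arrays, as were its levels of Cxcl1 and Cxcl5 (12.94).

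Ranked over all probe sets by the difference of this array from the mean of the other 4 in its group, members took 6 of the first 15 places. Il6 came first (6.55), followed by Cxcl3 (6.07), Cxcl1 (5.33), Csf3 (4.96) and Cxcl2 (4.37). Il1b was at rank 8 (4.05), Cxcl5 at rank 9 (4.04) and Ppbp at rank 15 (3.23). Cxcr2 was 1.01 higher, and Csf3r was the one gene of the 8 that did not lie above all other 4. Of the inducing genes 20 of 23 lay above the other 4, of the neutrophil markers 20 of 33 (median difference 0.79), of the endothelial markers 9 of 11 (median difference 0.37), of the monocyte and macrophage markers 3 of 15 and of the platelet markers 3 of 16. The array was picked as the VEGF array of day 7 with the highest mean of the 8 genes (10.38 against 7.58 for the next). High places for these genes were thus partly fixed by that choice, and these are descriptions of 1 array.

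**Figure D5:**
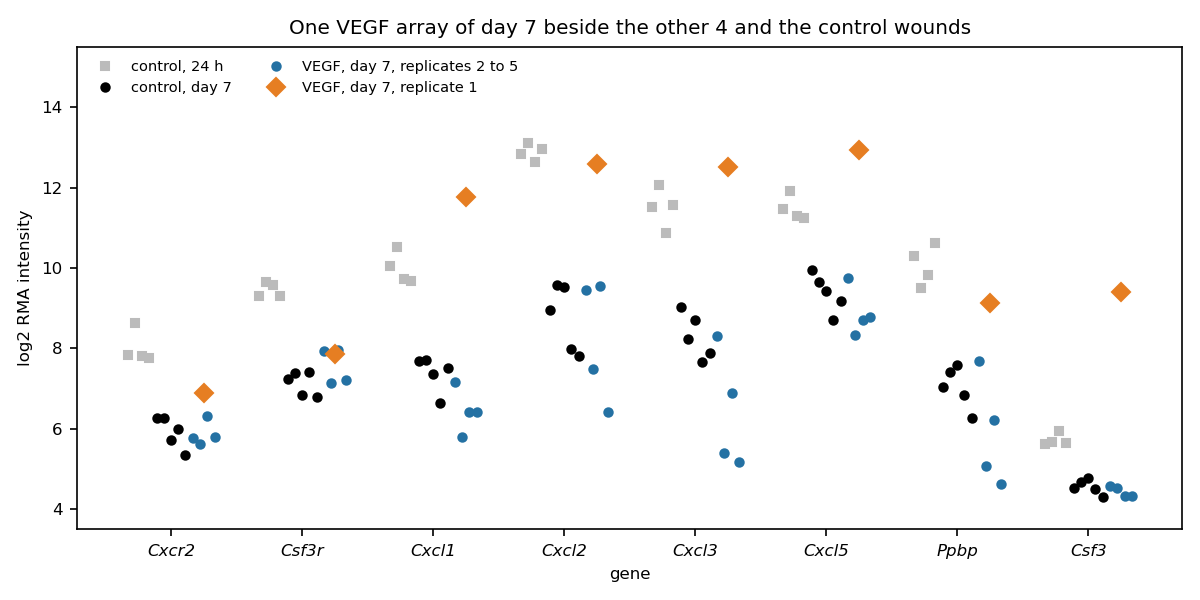
Levels of the 8 genes, as log2 RMA intensity, on VEGF replicate 1 of day 7, on the other 4 VEGF arrays of day 7, on the 5 control arrays of day 7 and on the 4 control arrays of 24 h. Replicate 1 lay above the other 4 for every gene but Csf3r, and its Csf3 level of 9.40 was above the 5.62 to 5.93 of the 24 h controls.

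Without that array the VEGF group read differently. The array was picked by its high mean of these same genes, so leaving it out lowered their VEGF means by construction. The calls without it are selected on that outcome. Cxcl3 was lower than control, by 1.87 as a log2 difference (adjusted p = 0.0377), the 1 gene of 8 called where 14.4% of all probe sets were. Cxcl1 differed by -0.94 (adjusted p = 0.0584), Ppbp by -1.12, Cxcl2 by -0.54, Cxcl5 by -0.49, Csf3 by -0.12 and Cxcr2 by -0.03. Csf3r went the other way, by 0.42 (adjusted p = 0.159). Against the remaining VEGF arrays, IL-22-Fc wounds were higher in 4 of 8 genes in place of 1 (23.5% of all probe sets called): Cxcl3 by 2.57 (adjusted p = 0.00282), Ppbp by 1.93 (0.00795), Cxcl1 by 1.92 (0.000168) and Cxcr2 by 1.49. With all 5 VEGF arrays, neutrophil markers gave 0 higher and 6 lower of 33 against control, where 5.96% of all probe sets were higher and 8.74% lower, and their mean was 7.31 to 8.37. Of the inducing genes 1 was higher and 3 were lower. Other markers differed from the control of day 7 without overlap. The mean of the keratinocyte markers was 10.38 to 10.83 with VEGF against 11.12 to 11.42, with 14 of 14 lower, that of the endothelial markers 7.64 to 8.16 against 6.78 to 6.92, and that of the monocyte and macrophage markers 10.82 to 11.05 against 10.52 to 10.78. Their part in the ligand values was not tested.

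Csf3r and Cxcr2 ran close to each other and less close to the ligands once group means were taken out. Over the 42 arrays, the probe sets most like Csf3r were Cd300lf and Fgr (Pearson r = 0.97 for both), which are myeloid genes. Cxcr2 was most like Gch1 and Il18rap (0.95), Olfm4 (0.94) and Il1b (0.93). Cxcl2 and Cxcl3 were each other's nearest (0.98), and Cxcl2 was next nearest to Clec4e (0.97) and Cd14 (0.96). Cxcl3 was next nearest to Cxcl5 (0.96). Cxcl1 was most like Socs3 (0.94) and Il1b (0.94), Cxcl5 after the other ligands most like Ptx3 (0.93), and Ppbp most like Cxcl3 and Mmp8 (both 0.92). Csf3 had no match as near, with Rnd1 and Il6 (both 0.83) first. Within groups, r was 0.73 between Cxcr2 and Csf3r, 0.89 between Cxcl3 and Cxcl5 and 0.84 between Cxcl1 and Csf3. With the ligands it was 0.11 to 0.38 for Csf3r and 0.24 to 0.53 for Cxcr2. These coefficients describe 42 arrays that share 9 groups, 1 tissue and 1 normalization, and the within-group values also share the 1 VEGF array that stood apart.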

How the data were processed

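Skin of db/db mouse wounds and untreated skin was measured on 42 Affymetrix Mouse430 arrays. The authors normalized the arrays with RMA and kept the most variable probe set of each Entrez gene. The deposited intensity of each of the 20672 probe sets is on a linear scale (3.85 to 23537, median 50.8), and log2 was taken before any test, although log2 values had been planned for. By the platform annotation 17928 probe sets carried 1 symbol, 79 several and 2665 none.

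The software was R 4.3.3, limma 3.58.1 and, for reading files, the data.table package (1.17.8). Treatments were compared within the 19 arrays of 24 h and the 18 of day 7, wounds with untreated skin over all 42, and times over the 37 wound arrays. Benjamini-Hochberg adjustment covered all probe sets, and a probe set passed at an adjusted p under 0.05. Exact permutation tests were two-sided. The fits were tested on simulated data.

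The genes, the related lists and the markers were chosen with earlier results of these data known. Every one of the 8 genes is named. A related list gave at most 4 passing genes, those with the largest change, and 2 others with the highest level, besides its defining markers. Beyond that rule, the neutrophil list also gave Stfa3 for control wounds from 24 h to day 7 and Ctsg for IL-22-Fc on day 7. For likeness, the 5 probe sets with the highest Pearson r were found, and not all are named. Monocyte and macrophage markers gave 10 higher of 15 in control wounds at 24 h, keratinocyte markers 5 higher and 6 lower of 14, fibroblast markers 1 higher and 7 lower of 12, endothelial markers 5 higher and 2 lower of 11, mast cell markers 1 higher and 2 lower of 8 and eosinophil markers 1 higher and 1 lower of 6. In that contrast, 19.3% of all probe sets were higher and 20.2% lower. The planned search of the ligands' protein sequences was not run. Promoters came from RefSeq (GRCm38.p6). Alternatives were filters on low and on steady probe sets, a pseudocount, a fold threshold, other sets of arrays, array weights, a 5′ control covariate, the methods' t-test and each array left out in turn.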

Additional observations from a re-analysis of the deposited data

Results flagged for a closer look

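In 64 tests of a group of 4 or 5 arrays for a single far value, over the 8 genes, 7 groups of values were marked where chance would mark 3.2, and 2 of the 7 were VEGF on day 7. There, replicate 1 stood above the other 4 in Cxcl1, at 11.77, and in Csf3, at 9.40. The further 5 were single arrays as well. In control wounds at 24 h, Cxcr2 on replicate 2 was high at 8.63 and Csf3 on replicate 3 was high at 5.93. With VEGF at 24 h, Cxcr2 on replicate 1 was low at 7.27. With IL-22-Fc at 24 h, Cxcl5 on replicate 2 was low at 10.31. In untreated skin, Cxcl1 on replicate 5 was low at 4.14. One effect differed between the times by its own test: the IL-22-Fc difference in Cxcr2 was 1.74 greater on day 7 than at 24 h (limma, adjusted p = 0.00213).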

How the results depend on the processing

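Of 6237 comparisons with an alternative, 6032 kept the direction and the side of the threshold or stayed within 1.5 times the main count. The alternatives without the PDGF arrays of day 7 and without these and the VEGF array that stood apart were chosen after seeing the data. The rise of Cxcr2 with IL-22-Fc on day 7 passed under every alternative run. No paired analysis was run, since the labels name no pairs of arrays. The counts of genes past the threshold, of 8, moved as follows, and the cause was not tested. With the 5′ control level as a covariate, counts were 2 for IL-22-Fc against PDGF at 24 h, 0 on day 7, 0 for PDGF against control at 24 h, 0 on day 7, 2 for VEGF against PDGF at 24 h and 0 on day 7. With all 42 arrays in 1 fit they were 1, 1, 0, 1 (unmoved), 1 and 0 in that order. The exact permutation test at p under 0.05, unadjusted, gave 1 for IL-22-Fc against VEGF at 24 h, 3 for IL-22-Fc against control on day 7, 4 and 2 for PDGF against control at 24 h and on day 7, and 0 for VEGF against PDGF on day 7, as did the methods' t-test before adjustment. After Benjamini-Hochberg adjustment the methods' t-test gave 1 for IL-22-Fc against PDGF at 24 h, 0 for PDGF against control at 24 h and 0 for VEGF against PDGF on day 7. Array weights gave 5 for PDGF at 24 h, a fit of only the groups compared gave 3 for PDGF on day 7, log2(value + 16) gave 2 for VEGF against PDGF at 24 h, and quantile normalization gave 1 for VEGF on day 7.

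Leaving out 1 array, counts ranged from 0 to 3 for PDGF against control at 24 h, 2 to 4 for VEGF against PDGF at 24 h, 0 to 3 on day 7, 1 to 3 for IL-22-Fc against PDGF and 1 to 4 against VEGF on day 7 (4 without VEGF replicate 1), and 0 to 1 for VEGF against control on day 7 (1 without VEGF replicate 1, 3 or 5) and for the PDGF effect between the times. Differences that had not passed reversed in sign. On day 7 with VEGF, leaving out 1 array gave -0.12 to 1.15 for Csf3, -0.94 to 0.55 for Cxcl1, -0.54 to 1.00 for Cxcl2, -0.49 to 0.66 for Cxcl5, -0.033 to 0.28 for Cxcr2 and -1.12 to 0.0071 for Ppbp, and with PDGF -0.089 to 0.56 for Cxcl1. At 24 h with PDGF, Cxcl2 ranged from -0.038 to 0.18. With the 5′ covariate, day 7 differences became -0.35 for Cxcl1, -0.28 for Cxcl2 and -0.00258 for Cxcl5 with VEGF, and 1.95 for Cxcl5 and 1.16 for Ppbp with PDGF. Array weights gave -0.17 for Cxcl1 with VEGF.

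With 3 to 5 arrays a group, the intervals of the ligands on day 7 were wide. Signal over background cannot be read from the table, which has no detection calls.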
